A study of Mus musculus with 6 samples.

Results

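Peaks of hnRNP UL1 whose nearest gene encodes a cytokine, a chemokine or one of their receptors were followed in macrophages before and after lipopolysaccharide (LPS). A peak belonged to the set when the gene name of its row began with Ccl, Cxcl, Ccr, Cxcr, Il, Tnfsf or Tnfrsf and a number (Ccrl2 included). This rule uses names and no measured value. It took 35 of 8425 peaks in untreated cells (0 h), 122 of 9046 complete rows after 4 h of LPS and 9 of 1153 after 10 h. These peaks named 60 member genes of 7610 gene IDs named in all, and 60 of 60 were found in the reference annotation.

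The cells were RAW 264.7, a mouse macrophage line, and LPS was given at 100 ng/ml. hnRNP UL1 is a nuclear RNA-binding protein, and chromatin bound to it was precipitated with an antibody and sequenced (ChIP-seq). Each time is 1 library of 1 cell line, without replicates, so no difference below could be set against a spread between replicates and no test was possible. Each deposited row places a peak as a point 2 bp wide and names a nearest gene with the distance to its start. Height, q-value and read depth are not among the columns used, so depth is unknown and a peak is either listed or not. A peak shows where the antibody enriched DNA and not whether the gene was expressed, so the label of the cells could not be checked from it. Of 8 macrophage genes looked up, 3 had a 0 h peak, as did 1 of 7 T and B cell genes and 1 of 3 hepatocyte genes. Of all protein-coding genes 15.6% were named by a 0 h peak. These lists are too short to tell cell types apart.

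The tables are sorted by Ensembl gene number and reach different ends. The 0 h table runs through all genes, the 4 h table ends at ENSMUSG00000027620 and the 10 h table at ENSMUSG00000022416. Times were therefore compared only over peaks whose nearest gene comes before these ends. The wide range, which 0 h and 4 h cover, has 2225 and 9045 peaks. The narrow range, its lower part, which all 3 times cover, has 1312 at 0 h, 5298 at 4 h and 1152 at 10 h. Of the 60 genes, 44 lie in the wide range, 21 of these also in the narrow range, and 16 lie beyond and have a 0 h value only. Values in parentheses after a share are its exact 95% interval (Clopper-Pearson), and those after a ratio of shares an exact 95% interval given the total of its counts. Both cover counting error only, and they are too narrow where neighbouring peaks belong to 1 bound region.

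Cytokines are small secreted or membrane-bound proteins that carry signals between immune cells. Chemokines (Ccl, Cxcl) direct cell migration through G protein-coupled receptors (Ccr, Cxcr). Many interleukins, though not all, act through paired receptor chains that feed JAK-STAT or MyD88 signalling. The TNF superfamily ligands (Tnfsf) bind receptors (Tnfrsf), many of which recruit TRAF adaptors. In macrophages LPS acts through Toll-like receptor 4 and NF-kB to switch on many of the ligand genes, while a number of receptors are made by resting cells.

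The promoters that held a peak point are shown first, since they are the stretches of upstream sequence on which the listed points of these genes fell. Promoter sequence of GRCm38.p6 from RefSeq was found for 50 of the 60 genes, and in 4 of them a point of a row naming the gene lay in the 250 bases before the start. Each line gives these bases 5′ to 3′ on the gene's strand, and capitals mark a motif found by the search described after them.
Il15ra (chr2:11705462-11705711, plus strand, point 176 bases before the start at 4 h): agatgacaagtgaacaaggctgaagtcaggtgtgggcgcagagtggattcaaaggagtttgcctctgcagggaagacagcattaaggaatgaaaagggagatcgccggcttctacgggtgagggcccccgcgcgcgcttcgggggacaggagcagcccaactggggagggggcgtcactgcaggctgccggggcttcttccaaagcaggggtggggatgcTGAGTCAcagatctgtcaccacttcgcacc
Il1rap (chr16:26581455-26581704, plus strand, point 219 bases before the start at 4 h): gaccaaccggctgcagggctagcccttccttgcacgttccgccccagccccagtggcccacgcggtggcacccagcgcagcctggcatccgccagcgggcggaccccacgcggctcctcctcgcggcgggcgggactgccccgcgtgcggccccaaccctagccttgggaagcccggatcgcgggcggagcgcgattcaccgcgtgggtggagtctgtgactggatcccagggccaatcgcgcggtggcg
Il1rl1 (chr1:40439379-40439628, plus strand, point 247 bases before the start at 4 h): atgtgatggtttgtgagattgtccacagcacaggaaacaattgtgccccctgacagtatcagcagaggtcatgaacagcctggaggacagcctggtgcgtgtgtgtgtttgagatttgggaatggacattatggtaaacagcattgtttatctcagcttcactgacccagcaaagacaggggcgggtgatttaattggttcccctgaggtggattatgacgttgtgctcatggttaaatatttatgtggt
Il6ra (chr3:89913197-89913446, minus strand, point 220 bases before the start at 0 h): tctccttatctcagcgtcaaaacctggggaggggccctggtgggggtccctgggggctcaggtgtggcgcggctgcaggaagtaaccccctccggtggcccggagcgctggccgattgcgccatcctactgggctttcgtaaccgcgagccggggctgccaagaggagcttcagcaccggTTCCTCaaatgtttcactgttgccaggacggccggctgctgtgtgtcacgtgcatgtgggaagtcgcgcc

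All 4 are receptor genes. Their G and C content was 60.4% for Il15ra, 74.4% for Il1rap, 46.4% for Il1rl1 and 65.2% for Il6ra, against a median of 52.4% over 32851 promoters. Both strands were searched for the AP-1 motif TGANTCA, the ETS core GAGGAA, an interferon-response core (GAAA, 2 bases of any kind, GAAA) and the NF-kB consensus. The Il15ra promoter holds an AP-1 match that begins 30 bases before the start, and the Il6ra promoter holds an ETS core on the other strand that begins 70 bases before it. The AP-1 motif was in 15.4% of 65 promoters of the genes named by a row, in 15.7% of 159 promoters of all member genes and in 6.75% of all promoters. The NF-kB consensus was in 16.9%, 12.6% and 7.25% of these sets. The ETS core was in 33.8%, 30.8% and 23.3%, and the interferon-response core in 4.62%, 5.66% and 2.98%. Promoters of genes with a listed peak and promoters of all member genes thus held the AP-1 motif in nearly the same share. These matches describe letters and not bound sites.

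In untreated cells most of the listed peaks of the set were at receptor genes. Receptors held 27 peaks in 19 genes and ligands 7 peaks in 6 genes. The last peak lay inside the reference span of Il4i1, 702 bp before the transcript start named. Il4i1 encodes an amino acid oxidase induced by interleukin 4 and was counted with neither side. Together the peaks of the set made up 0.415% of all 0 h peaks (35 of 8425, 95% interval 0.289 to 0.577). Set against the protein-coding genes of the reference, 26 of 169 members were named by a 0 h peak (15.4%), and 15.6% of all 21887 genes were. The set as a whole was therefore named about as often as other genes, with receptors at 24.1% (19 of 79) and ligands at 6.82% (6 of 88).

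Gene length differs between the sides, with a median of 5.46 kb for ligand genes, 19.7 kb for receptor genes and 17.2 kb for all genes. Among genes under 10 kb, 4 of 62 ligand genes (6.45%), 3 of 20 receptor genes (15%) and 6.62% of all genes were named at 0 h. From 10 to under 40 kb the shares were 2 of 21 ligand genes (9.52%), 9 of 38 receptor genes (23.7%) and 16.2% of all genes. At 40 kb or more they were 0 of 5, 7 of 21 (33.3%) and 26.8%. Short ligand genes were thus named about as often as other short genes, and receptor genes more often than all genes in each class, with small counts throughout.

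The receptors with the most 0 h peaks were Il6st and Il7r with 3 each. Il6st encodes gp130, the signalling chain shared by the interleukin 6 family, and its points lay 322 bp before and 343 bp after a start and in an intron. Il7r, the alpha chain of the interleukin 7 receptor, had points 2354 and 6470 bp into the gene and 1 at 29035 bp, beyond its end. Tnfrsf21 (death receptor 6), Tnfrsf13b (TACI, which binds BAFF and APRIL), Cxcr5 (the receptor of Cxcl13) and Ccr6 (the receptor of Ccl20) had 2 each. Both Cxcr5 points lay outside the span the reference gives that gene, though the authors' annotation places them in an intron of Cxcr5. The other 13 receptors had 1 each. Of the interleukin receptors 9 of 41 were named (22%), of the chemokine receptors 6 of 18 (33.3%) and of the TNF receptor superfamily 4 of 20 (20%).

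The resting ligand peaks were few. Tnfsf18 (GITR ligand) had 2, both intergenic, and Il10, Il12a, Il23a, Tnfsf15 and Ccl17 had 1 each. Il10, an anti-inflammatory cytokine, and Il23a, the p19 chain of interleukin 23, had theirs 162 bp after and 337 bp before the start. Il12a, the p35 chain of interleukin 12, had its point 16993 bp upstream. Ccl17, a ligand of Ccr4, was the chemokine named, 1 of 37 (2.7%), beside 3 of 40 interleukins (7.5%) and 2 of 11 TNF superfamily ligands (18.2%).

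At 0 h, 8 of the 35 points lay within 1 kb of a start, at Il10, Il23a, Il6st (2 points), Il6ra, Ccrl2, Cxcr4 and Il4i1. Il6ra, which encodes the ligand-binding chain for interleukin 6, and Il6st, which encodes its signalling partner, were thus both listed at their starts in resting cells. Cxcr4 (the receptor of Cxcl12) had its point 726 bp and Ccrl2 (an atypical receptor that binds chemerin) 312 bp after the start. The class within 1 kb of a start held 22.9% of the member peaks (95% interval 10.4 to 40.1) and 27.4% of all 0 h peaks. Distal intergenic positions held 37.1% (21.5 to 55.1) and 21.6%.

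After 4 h of LPS far more peaks of the set were listed, and ligand genes made up more of them. In the wide range the set had 16 peaks at rest and 122 at 4 h, 7.63 times as many, while the whole list grew 4.07 times. The share of the set was 0.719% (0.412 to 1.17) before LPS and 1.35% (1.12 to 1.61) after it, and the ratio of these shares was 1.88 (1.11 to 3.39). Ligand peaks went from 2 to 52 and receptor peaks from 14 to 70. Relative to the growth of the whole list that is 6.4 times for ligands (1.68 to 54.2) and 1.23 times for receptors (0.686 to 2.37), and the ligand ratio was 5.2 times the receptor ratio (1.11 to 48.7). The plot of peaks per 1000 shows both sides.

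The increase depended on which genes were counted. In the narrow range the set went from 11 to 46 peaks, and its share was 1.04 times (0.528 to 2.22) that of 0 h. In the rest of the wide range it went from 5 to 76, a ratio of 3.7 (1.52 to 11.7). The ligand ratio was 7.18 (1.19 to 293.3) in the narrow range and 5.6 (0.91 to 230.9) in the rest, where its interval includes 1. The receptor ratio was 0.421 (0.182 to 1.03) in the narrow range and 3.23 (1.19 to 12.3) in the rest. The ligand ratio was thus 17.1 times the receptor ratio (2.02 to 765.1) in the narrow range, and the sides lay closer together in the rest. If only points inside the gene or within 5 kb upstream are counted, the ratio for the set is 1.48 (0.794 to 2.99) and the ligand ratio 2.53 (0.615 to 22.3), and both intervals then include 1. Without Il10, which carried 1 of the 2 resting ligand peaks, the ligand ratio is 10.6 (1.8 to 427.4).

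**Figure D1:**
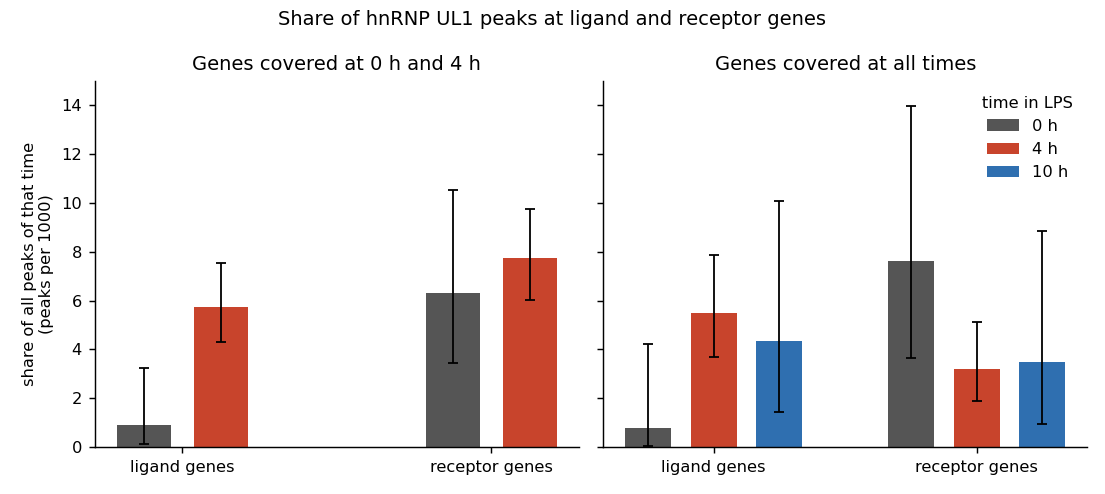
Peaks of ligand and receptor genes per 1000 listed peaks (linear axis from 0) in untreated cells and after 4 and 10 h of LPS, 1 library per time; bars are shares and whiskers exact 95% intervals that cover counting error only. In the left panel, the wide range, ligands stand at 2 of 2225 and 52 of 9045 peaks and receptors at 14 and 70; the right panel is the narrow range, with 1, 29 and 5 ligand peaks and 10, 17 and 4 receptor peaks.

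Of the 43 member genes named at 0 h or 4 h in this range, 33 (76.7%) were named at 4 h and not at 0 h, against 61.4% of all 3435 genes. They were 18 of 20 ligand genes (90%) and 15 of 23 receptor genes (65.2%). No member was named at 0 h and not at 4 h, against 8.12% of all genes. The other 10 (23.3%, background 30.5%) were named at both times: the ligands Il10 and Il23a and the receptors Il17ra, Il7r, Tnfrsf13b, Il13ra1, Il6st, Il10rb, Tnfrsf21 and Il1r1. More peaks at 4 h than at 0 h were listed for 41 members (95.3%, background 80.9%), Tnfrsf21 had 2 at each time, and Tnfrsf13b, with 2 and 1, was the member with fewer (background 10.8%). The median gene had 2 peaks at 4 h in the set and 2 among all genes, with means of 2.84 and 2.63. At 0 h the means were 0.372 and 0.648. These means cover only genes with a row at either time, and 33 of the 43 members entered through 4 h alone. A low 0 h mean is therefore partly built in and is not read as a trait of resting cells. Over all protein-coding genes of the reference, 15.4% of members and 15.6% of all genes were named at 0 h.

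The same counts were made in the narrow range, over 21 member genes and 2104 genes in all. There 14 members (66.7%, background 58.1%) were named at 4 h and not at 0 h, 0 at 0 h and not at 4 h (background 8.46%), and 6 at both (28.6%, background 29.1%). The sides lay apart, with 11 of 13 ligand genes (84.6%) and 3 of 8 receptor genes (37.5%) named at 4 h and not at 0 h. At both times 1 ligand gene (7.69%) and 5 receptor genes (62.5%) were named. More peaks at 4 h were listed for 19 (90.5%, background 76.9%), and fewer for Tnfrsf13b (4.76%, background 11.1%). Mean peaks per gene were 0.524 in the set and 0.624 among all genes at 0 h, and 2.19 and 2.52 at 4 h. Here the set lay below all genes at both times, again over genes with a row only.

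**Figure D2:**
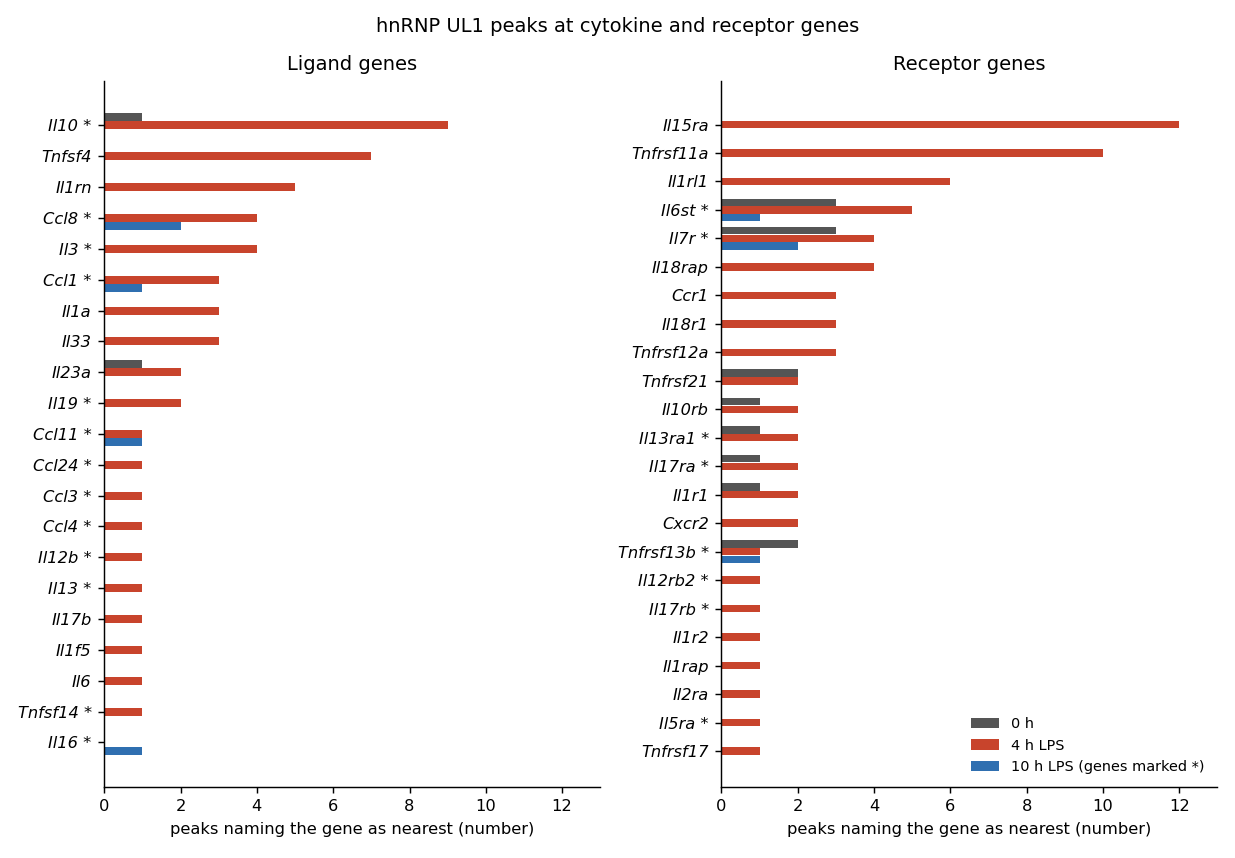
Number of listed peaks naming each of the 44 member genes in the wide range (horizontal axis, peaks), at 0 h, 4 h and 10 h, with ligand genes on the left and receptor genes on the right; the 10 h value exists for genes marked with an asterisk. Il15ra with 12 and Tnfrsf11a with 10 peaks at 4 h have no bar at 0 h, and grey bars stand at 2 ligand and 8 receptor genes.

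Among the interleukins, 2 peaks at 0 h became 33 in 12 genes at 4 h. Il10 had 1 peak at 0 h and 9 at 4 h, and 124 of the 3435 genes had more at 4 h. The 9 points covered 30.1 kb of chromosome 1, from 4480 bp before the start to 25647 bp after it, beyond the end of the gene at 131024970. The authors' annotation calls 8 of them distal intergenic, and none lay within 500 bp of the resting point at the start. Il19, a neighbouring member of the interleukin 10 family, had 2 points, 11195 bp upstream of a start and 11321 bp from a start on the other side.

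Il1rn, the interleukin 1 receptor antagonist, which blocks the receptor rather than activating it, had 5 points at 4 h and none at 0 h. They lay between positions 24333918 and 24356213 of chromosome 2, and the gene spans 24336860 to 24351491. Il1f5, the interleukin 36 receptor antagonist beside it, had 1, and the 6 points of the pair covered 84.4 kb. Il1a, which encodes interleukin 1 alpha, had 3, of which 1 lay 339 bp before the start. Il33, an alarmin of the same family, also had 3, all upstream of the start named. Of these, 2 lay in the first intron of Il33 itself, before the start of a shorter transcript.

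Il3, a growth factor of myeloid precursors, had 4 points at 4 h, at 12280 and 1416 bp before and 229 and 2678 bp after its start. Il23a had 2 at 4 h, and that at 25 bp from the start was 363 bp from the resting point. Il12b, the p40 chain that Il23a and Il12a share, had 1 point in an intron. Il6, a major LPS-induced cytokine, had 1 point at 4 h, 23068 bp from the start in intergenic sequence, and none at 0 h.

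Chemokine genes had 0 peaks at 0 h and 11 in 6 genes at 4 h. The lower limit of their ratio of shares is 0.617, so with no resting peak this cannot be told from the growth of the whole list, nor can the TNF superfamily ligands (lower limit 0.42) or the chemokine receptors (0.225). Ccl8 (MCP-2) had 4, Ccl1 3, and Ccl11 (eotaxin), Ccl24, Ccl3 and Ccl4 1 each. By the reference span, no 4 h point of Ccl8 or Ccl1 lay inside the gene or within 5 kb upstream. The authors' annotation places the Ccl1 point 40874 bp from a start in an intron of Ccl1. Those of Ccl8 were all intergenic, from 3338 to 24203 bp after the start. Ccl3 and Ccl4, the macrophage inflammatory proteins that LPS induces, had theirs 978 and 1635 bp after the start. The TNF superfamily ligands went from 0 to 8 peaks. Of these, 7 named Tnfsf4 (OX40 ligand), a T cell costimulator, all over 10 kb from its start and spread over 80.3 kb, and 1 named Tnfsf14 (LIGHT).

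Interleukin receptors had 10 peaks at 0 h and 48 in 16 genes at 4 h, which is 1.18 times (0.59 to 2.62) the growth of the list. Il15ra, which presents interleukin 15 to neighbouring cells, had 0 and 12, and 83 of 3435 genes had more at 4 h. Its points covered 26.2 kb at the gene (chr2:11705172-11733985), from 2593 bp before the first start named, with a median gap of 1.3 kb, and 4 lay within 1 kb of a start. One of these is the point in the promoter printed above, which the table places 15 bp before another of its transcripts. Il2ra, which lies next to it, had 1 intronic point at 4 h, so the pair had 0 peaks at 0 h and 13 at 4 h. Without Il15ra the receptor ratio is 1.02 (0.561 to 1.98) and that of the whole set 1.69 (0.996 to 3.06).

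The cluster of interleukin 1 family receptors on chromosome 1 held 16 peaks over 491 kb at 4 h and 1 at 0 h, and 1 more 0 h point in the same stretch names a gene ID without a symbol. Il1rl1 (ST2, the receptor of interleukin 33) had 6, Il18rap 4, Il18r1 3, Il1r1 2 and Il1r2 1. Il1r1, the signalling receptor of interleukin 1, carried the 0 h peak, in an intron, and Il1r2 encodes the decoy receptor. Of the 6 Il1rl1 points, 5 are called distal intergenic, though 4 of these fall inside the longer span that the reference gives the gene, and 1 lies in the promoter printed above. Chromosome 1, which also carries Il10, Tnfsf4 and Tnfrsf11a, held 37.7% of the member peaks at 4 h and 8.94% of all peaks. The co-receptor Il1rap on chromosome 16 had 1 point at 4 h, also in its promoter. Without the 5 genes of the cluster the ratio of shares of the set is 1.74 (1.01 to 3.22).

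Receptors listed at both times mostly had their peaks at other places, as did genes in general. Of all 0 h points in the wide range, 18% had a 4 h point within 500 bp. Il6st had 3 points at 0 h and 5 at 4 h, the latter with no point within 1 kb of a start. Il7r had 3 and 4, and all 4 points at 4 h lay upstream, from 34177 to 105090 bp before the start. Of these, 3 were inside Spef2, a sperm flagellar gene, so the name Il7r on these rows does not place the points in that gene. Il10rb, the second chain of the interleukin 10 receptor, kept an intronic position, with points 33 bp apart at 0 h and 4 h. Il17ra had points 221 bp apart, 8935 and 8714 bp upstream.

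**Figure D3:**
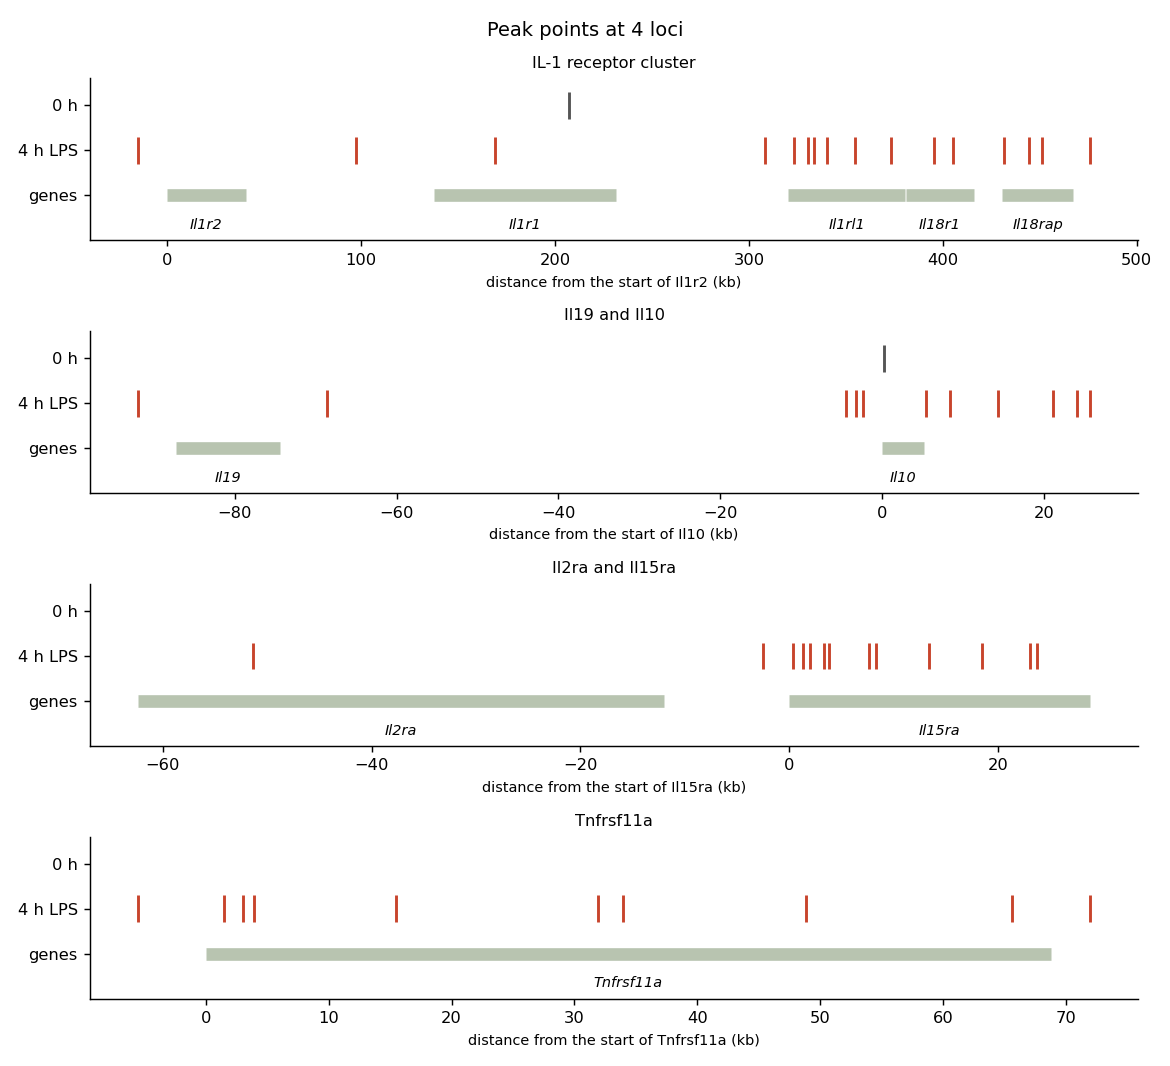
Peak points naming the genes shown (vertical ticks) at 4 loci in untreated cells and after 4 h of LPS, with reference gene spans as bars and the horizontal axis in kb from the start of the reference span of the gene named on the axis. The receptor cluster has 16 points at 4 h and 1 at 0 h, Il19 with Il10 11 and 1, Il2ra with Il15ra 13 and 0, and Tnfrsf11a 10 and 0.

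In the TNF receptor superfamily 4 peaks at 0 h became 17 in 5 genes at 4 h, a ratio of shares of 1.05 (0.341 to 4.27). Tnfrsf11a (RANK), the receptor through which macrophage precursors become osteoclasts, had 0 and 10, spread over 77.5 kb, and 107 of 3435 genes had more at 4 h. Tnfrsf12a, the receptor of TWEAK, had 3 points at 4 h, all within 1 kb of its start. Tnfrsf17 (BCMA) had 1, 18243 bp upstream. Chemokine receptors went from 0 to 5 peaks. Ccr1, a receptor of Ccl3, had 3, all intergenic and over 10 kb away, and Cxcr2 had 2. With 5 or more peaks at 4 h were 7 of the 43 member genes (16.3%, background 13.9%): Il15ra, Tnfrsf11a, Il10, Tnfsf4, Il1rl1, Il6st and Il1rn.

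Member peaks at 4 h were more often intergenic than other peaks of that time. Distal intergenic positions held 41.8% of them (32.9 to 51.1) and 17.3% (16.5 to 18.1) of all 4 h peaks. The share was 57.7% (43.2 to 71.3) for ligands and 30% (19.6 to 42.1) for receptors. Within 1 kb of a start lay 12.3% (7.05 to 19.5) against 19.9%, with ligands at 7.69% and receptors at 15.7%. Introns held 11.5% of ligand peaks, 41.4% of receptor peaks and 41.2% of all. Inside the gene or within 5 kb upstream lay 38.5% of ligand points, 71.4% of receptor points and 76.2% of all points. In the reference, median gene length is 5.46 kb for ligands, 19.7 kb for receptors and 17.2 kb for all genes. The part of gene length in these position shares was not tested. The distal share was 38.1% without Il10 and 40.6% without the receptor cluster. Of the 35 intronic member points at 4 h, 6 lay in an intron annotated to another gene. The 2 points of Il10rb are among these, though they also lie inside the reference span of Il10rb.

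**Figure D4:**
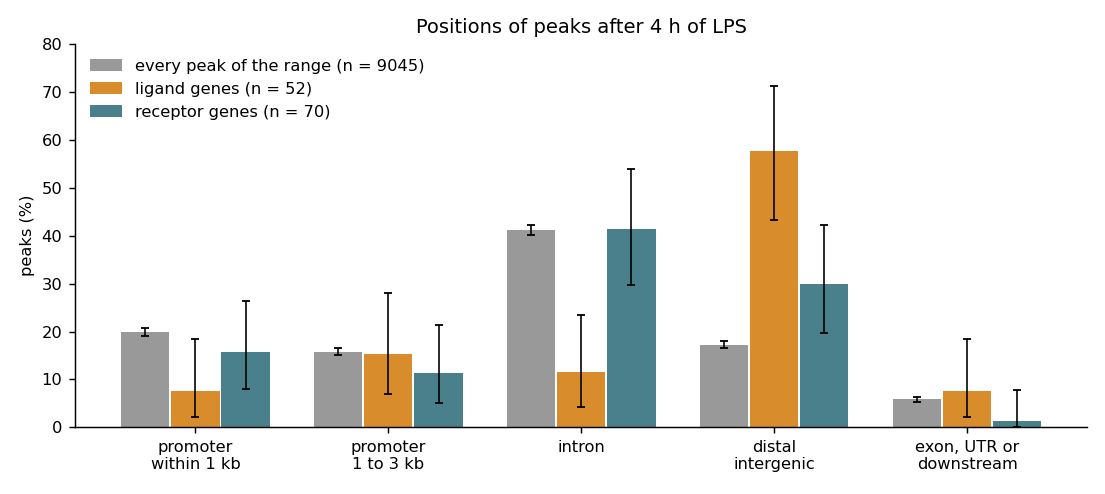
Share of 4 h peaks (percent, linear axis from 0) in each position class of the authors' annotation, for every peak of the wide range, for ligand genes and for receptor genes; whiskers are exact 95% intervals that cover counting error only. Ligand peaks are 57.7% distal intergenic and 11.5% intronic, while receptor peaks are 30% and 41.4%.

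Sites were seldom shared between times. Of the 16 member points at 0 h, 3 (18.8%, 4.05 to 45.7) had a 4 h point within 500 bp, those of Il17ra, Il10rb and Il23a, and 18% of all 0 h points in the range did. Of the 122 at 4 h, 3 (2.46%, 0.51 to 7.02) had a 0 h point that near, against 4.54% of all. At 1000 bp the member share of 4 h points was again 2.46%, and 7.25% of all 4 h points had a 0 h point that near, above the interval of the members. At 200 bp the shares were 0.82% (0.0207 to 4.48) and 2.49%, and for 0 h points 6.25% (0.158 to 30.2) and 9.93%.

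**Figure D5:**
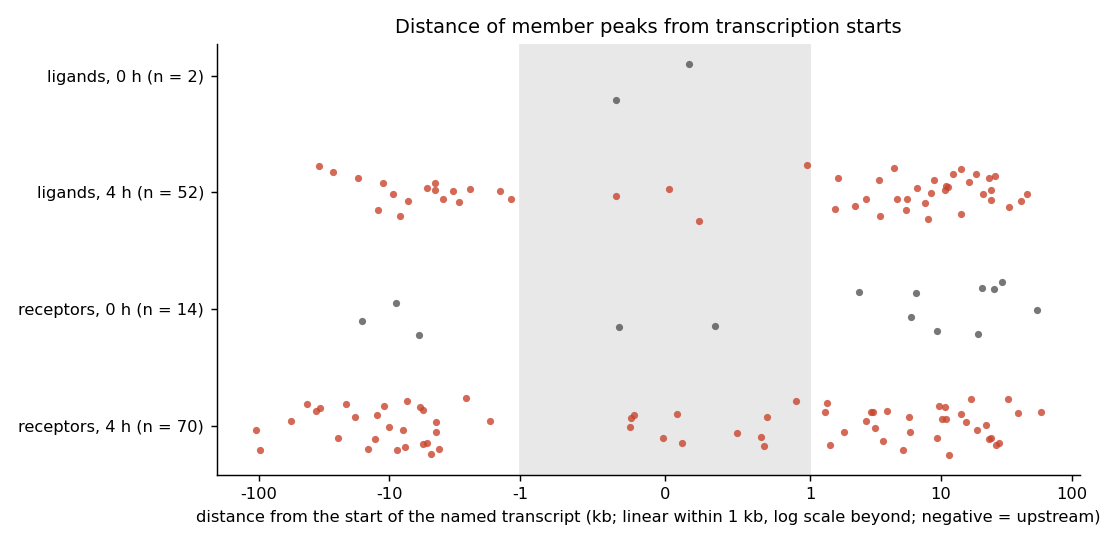
Distance of each member point from the start of the transcript it names (kb, linear within 1 kb and logarithmic beyond, negative upstream), by side and time, in the wide range; vertical scatter within a row has no meaning and the grey band marks 1 kb to either side. Of the ligand points 2 of 2 at 0 h and 4 of 52 at 4 h fall in the band, and of the receptor points 2 of 14 and 11 of 70.

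In the narrow range the share of the set differed little between the 3 times. The set held 0.838% of the peaks before LPS (11), 0.868% after 4 h (46) and 0.781% after 10 h (9). The ratio of shares from 0 h to 10 h was 0.932 (0.341 to 2.47), and that from 4 h to 10 h was 0.9 (0.387 to 1.86). Neither direction is settled: within 10 kb of a start the ratios were 1.07 and 1.18, and without Il10 they were 1.02 and 1.12. Ligands had 1, 29 and 5 peaks and receptors 10, 17 and 4. Relative to the whole list, ligands at 10 h stood at 5.69 times 0 h (0.637 to 269.3) and receptors at 0.456 times (0.104 to 1.58), and the first over the second was 12.5 (0.843 to 648.5), an interval that includes 1.

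Of 21 member genes in this range 7 were named at 10 h (33.3%, background 32.3%). The chemokines Ccl8, Ccl11 and Ccl1, which lie together on chromosome 11, held 4 of the 9 peaks. Ccl8 had 0, 4 and 2 at 0, 4 and 10 h, and its 10 h points lay 906 bp before and 2799 bp after the start, with the later 539 bp from a 4 h point. Ccl11 had 0, 1 and 1, with 3879 and 4524 bp upstream at 4 and 10 h, 645 bp apart. Ccl1 had 0, 3 and 1. Over the 3 genes there were 0, 8 and 4 peaks.

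The remaining 10 h peaks were at Il7r (2), Il6st, Tnfrsf13b and Il16. The receptors Il7r, Il6st and Tnfrsf13b were the members listed at all 3 times (14.3%, background 13.1%), with 3, 4 and 2, with 3, 5 and 1, and with 2, 1 and 1 peaks. The 10 h points of Il6st and Tnfrsf13b lay 216 bp before and 327 bp after a start. The 4 members listed at 10 h and not at 0 h (19%, background 17.4%) were the ligands Ccl8, Ccl11, Ccl1 and Il16. Il16, a CD4-binding chemoattractant, was the member listed at 10 h and not at 4 h (4.76%, background 6.13%). Its point lay inside the reference span of Il16, in an intron that the authors' annotation gives to another gene ID. Named at 4 h and not at 10 h were 14 (66.7%, background 61%), Il10 among them with 1, 9 and 0. No member point at 10 h had a 4 h point within 500 bp (0 of 9, upper limit 33.6%), against 20.3% of all, and 2 of 9 (22.2%, 2.81 to 60) had one within 1000 bp, both in the chemokine cluster, against 28.8% of all.

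Several chemokine and receptor genes had points in or near them that name a neighbour and are not in the counts above. Tnfrsf1b (TNF receptor 2, chr4:145212368-145246870) had 1 point at 0 h that names it, in an intron. This gene lies beyond the wide range, so points naming it could be listed at 0 h only. Points in it or within 5 kb that name Vps13d came to 1, 9 and 5 at 0, 4 and 10 h, of which 0, 5 and 2 were inside Tnfrsf1b. Ccl5 (RANTES), which no row names, had 0, 6 and 1 such points naming Heatr9, of which 0, 1 and 1 were inside the gene. Cxcl16, the ligand of Cxcr6, had 2 at 4 h naming Med11, and Ccl2 (MCP-1) had 1 at 0 h naming Gm17268. Gm17268 also lies beyond the wide range, so later points naming it could not be listed. Counted by position within 5 kb of any member gene whatever the name, the ratio of shares from 0 h to 4 h was 1.97 (1.1 to 3.82). The same count gave 1.52 (0.587 to 4.08) from 0 h to 10 h and 1.25 (0.603 to 2.42) from 4 h to 10 h, both above 1 where the count by name gave values below 1.

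Of 30 well-known macrophage cytokine and receptor genes looked up by name, 16 had no row in any table, among them Ccl2, Ccl5, Ccl9, Ccl22, Cxcl2, Cxcl10, Cxcl16, Il1b, Ccr2, Ccr7, Il10ra, Il4ra, Tnfrsf1a, Tnfsf9 and Tnfrsf9. For these the 0 h table lists no peak, and whether the 4 h and 10 h tables reach their gene numbers was not determined.

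Other genes of the same pathways, with names outside the pattern, were counted in the same way. Of 71 such genes 25 were named by a row in the wide range, with 15 peaks before LPS and 119 after 4 h. Of the 25, 15 (60%, background 61.4%) were named at 4 h and not at 0 h, a share at the background, and 10 (40%, background 30.5%) at both times. None was named at 0 h and not at 4 h (background 8.12%). More peaks at 4 h were listed for 22 (88%, background 80.9%), fewer for Traf5 (3 and 1), and 2 had equal numbers. In the narrow range these genes went from 9 to 61 peaks, where the set went from 11 to 46. Jak2, a kinase of cytokine receptors, had 0 and 22, and Cd40, a TNF receptor family costimulator, 0 and 15. Csf1, the macrophage growth factor, had 0, 7 and 1 at 0, 4 and 10 h, and Csf1r, its receptor, had 1 at 0 h and 1 at 4 h. For Tnf and Ifnb1 the 0 h table lists no peak, and their later values were not determined.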

How the data were processed

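hnRNP UL1 ChIP-seq peak tables of 3 samples of RAW 264.7 cells (0, 4 and 10 h of LPS, grouped by title, 1 library each) form the data; the 3 input samples were not used here. The submitters' processing notes name the tools MACS2 2.1.0, BWA 0.7.12 and CASAVA 1.8 and the build GRCm38 (mm10), and roles, settings and the use of input are not given in the sources used here. Per the file headers the authors deposited peak points, a position class, the nearest gene and the distance to its start. Columns with a height, q-value or depth are not among them.

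The broken last row at 4 h was dropped, and 32.7% of 0 h rows carry no gene name. The tables' distances matched recomputed ones within 1 bp. Members were matched by name to the RefSeq annotation of GRCm38.p6. Il4i1 matches the pattern but encodes an enzyme, so it was counted with neither side. Members and lists were chosen with earlier results of these data known. The genes named were the up to 5 with the most peaks per role at 4 h and at 0 h, all with a 10 h peak, and a list of 30; other genes were named after their values were seen. Other settings tried changed which rows or genes count, the range of gene numbers and the sharing distance (200 and 1000 bp). The ratio of shares and its interval were tested on simulated independent counts, and the sharing of positions on shifted 4 h points. Neither test covered the matching of names or clustered peaks. Counts and intervals used Python 3.11.15, pandas 2.3.3 and scipy 1.17.1. Values of some genes are not reported here.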

Additional observations from a re-analysis of the deposited data

How the results depend on the processing

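Of 54 alternative values, 46 lay within the 95% interval of the value reported (counts of genes within 1.5 times) and 8 did not. These intervals are wide, so values within them could still differ over 1.5 times or cross 1. The ligand ratio ran from 2.531 to 10.58, the ratio from 0 h to 10 h from 0.7151 to 1.519 and that from 4 h to 10 h from 0.8998 to 1.254. Shared positions ran from 6.25% to 18.75% for 0 h, from 0.8197% to 2.459% for 4 h and from 0% to 22.22% for 10 h points. Settings added after seeing the data were the count by position, the wide range without the narrow one, the named-rows denominator, the values without the receptor cluster, the distal shares and most ligand and receptor alternatives. The ratio of shares of the set from 0 h to 4 h was 1.036 in the narrow range and 3.704 in the rest of the wide range, and the receptor ratio was 0.421 in the narrow range. The share of all peaks at rest was 0.7191% in the wide range and 0.6172% over rows with a gene name. Within 3 kb of a start lay 25.41% of the 4 h member peaks, a wider window by construction. The number of members named at 0 h and not at 4 h was 1, Il7r, both when points inside genes or within 5 kb upstream and when points within 10 kb of the start were counted. For the differences between ranges the cause was not tested. A stricter peak threshold was not run, since heights and q-values are not among the columns, and no replicate could be left out. No paired analysis was possible because each time is 1 library. Depth is unknown, so a time with fewer listed peaks cannot be told apart from a shallower or less enriched library.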
